A study of Mus musculus with 28 samples.

Results

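Gap43, Ybx1, Ptma and Ptms are 4 genes whose N6-methyladenosine (m6A) peaks lay in cerebellum lists alone. They were chosen by the measured presence of peaks: every list was searched for peaks overlapping the span of each gene on its own strand, and these genes had been selected on a 5′UTR or other region called in cerebellum and missing from cerebrum. They are 4 of the 12152 annotated genes with at least 1 region, and they held 10 of 33937 regions, a region being the stretch covered by overlapping peaks of the 14 lists on 1 strand. Because presence by tissue chose them, each contrast between the tissues below is a description of these genes and carries no test.

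In m6A-seq, fragmented RNA is pulled down with an antibody against m6A, and methylated stretches appear as peaks of reads from the immunoprecipitated (IP) RNA. The mark is written by the METTL3-METTL14 complex, mostly at the sequence context called DRACH, and in most mRNAs it gathers in long internal exons and around the stop codon, while short internal exons and the neighbourhood of exon junctions are usually poor in it. Gap43 encodes a growth cone protein of extending axons, Ybx1 an RNA-binding Y-box protein with a cold shock domain, Ptma prothymosin alpha, an acidic nuclear protein that binds histones, and Ptms parathymosin, its small acidic relative.

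The 14 IP libraries came from cerebellum and cerebrum of F1 hybrids between the inbred strains PWK/PhJ (PWK) and C57BL/6J (C57), taken at birth (P0) or at postnatal day 7 (P7). F1i animals had a PWK mother and C57 father, F1r animals the opposite parents, and all animals carried 1 genome of each strain. Cerebellum was represented by 2 P0 libraries, an F1i and an F1r both labelled male, and by 4 P7 libraries, an F1i-F1r pair of each sex. Cerebrum had such a pair of each sex at P0 and at P7, 8 libraries in all. The labels do not say whether a library came from 1 animal or from a pool. The methods describe both polyadenylated RNA and total RNA freed of ribosomal RNA. Which of these a library came from was not considered here. Barcoded RNA fragments of several samples were pooled before the IP. All cerebellum libraries belonged to 1 batch of m6A-seq in the study's sample sheet and all cerebrum libraries to another, and the effect of tissue and that of batch cannot be told apart.

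The lists held 16687 to 18997 peaks in cerebellum and 19042 to 26208 in cerebrum, and relative depth (the genome-wide background of a list over its mean across lists) ran from 0.560 to 1.57. All 9 cerebrum markers had a region called in all 8 cerebrum libraries. Among them 3 were also called in all 6 cerebellum libraries, and Emx1, a regulator of the forebrain, had no peak in cerebellum. Among 10 cerebellum markers, 8 had a region. A region was called in all 6 cerebellum libraries for 6 of them and in all 8 cerebrum libraries for 3. En2, Atoh1 and Pcp2 had no peak in cerebrum. One library stood apart: over 10295 regions, the deviations of the P7 female F1i cerebellum library from the mean depth-scaled pileup correlated at -0.33 to -0.55 with those of the other P7 libraries, which correlated at 0.45 to 0.72 with each other. Results on age that rest on it are given with and without it.

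The summits that carry the pattern are shown first, each as 29 bases of the C57 reference (mm10, the GRCm38 assembly), read 5′ to 3′ on the strand of the gene and centred on the summit of the strongest peak. In the first 4, whose summits lay at the 3′ end of an exon, capitals mark exonic bases and lower case the intron that follows. In the other 4 all bases are exonic and the single capital marks the summit.

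Ptma exon 2 (Ptma region 2, chr1:86529231-86529259, + strand): CCAATGGGAACGCTgtgagtgtccaagta
Ptms exon 1 (Ptms region 2, chr6:124917546-124917574, - strand): GAGCTGAGTGCCAAGgtacgggcaggggc
Ptms exon 2 (Ptms region 3, chr6:124914901-124914929, - strand): GAAGTAGTGGAGgtgtgaaggcagcaggg
Ptms exon 3 (Ptms region 4, chr6:124914622-124914650, - strand): GAAGGGGATGAAGAAGgtagggatgggta
Gap43 5′UTR (Gap43 region 1, chr16:42340515-42340543, - strand): aaaggagagaaggcAggaagaaggcaggg
Ybx1 5′UTR (Ybx1 region 1, chr4:119294408-119294436, - strand): ccggcctagtcaccAtcacacccgggagg
Ptma exon 3 (Ptma region 3, chr1:86529521-86529549, + strand): ggaggaagaggaggAggaggaagaaggtg
Ptms 5′UTR (Ptms region 1, chr6:124917855-124917883, - strand): cggagcgcgccggcCaccgcccgcatcgt

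A DRACH site reads A, G or T, then A or G, then AC, then A, C or T. None of these 8 stretches held one on the strand of the gene.

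In all, 51 peaks lay in the 4 genes, and 0 of them came from a cerebrum library. Of the 10 regions, 8 were called in all 6 cerebellum libraries and in 0 of 8 cerebrum libraries. This pattern, named cerebellum-only from here on, was held by 236 of all 33937 regions, or 0.695%, and by 55 of 1552 5′UTR regions, or 3.54%. Of 10671 protein-coding genes with a region, 85 (0.797%) had such a region and no cerebrum peak anywhere, and the 4 genes were among them. By Fisher's exact test of presence with Benjamini-Hochberg adjustment, 463 of the 24722 regions that varied between libraries (1.87%) were called more often in cerebellum. Since the rule used this contrast, these shares only set the scale. The opposite strand held 0 peaks in the spans of the 4 genes. In bulk tissue, fewer cells that make a transcript and less of it per cell cannot be told apart, and the levels of these transcripts in the input RNA were not analysed here.

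**Figure D1:**
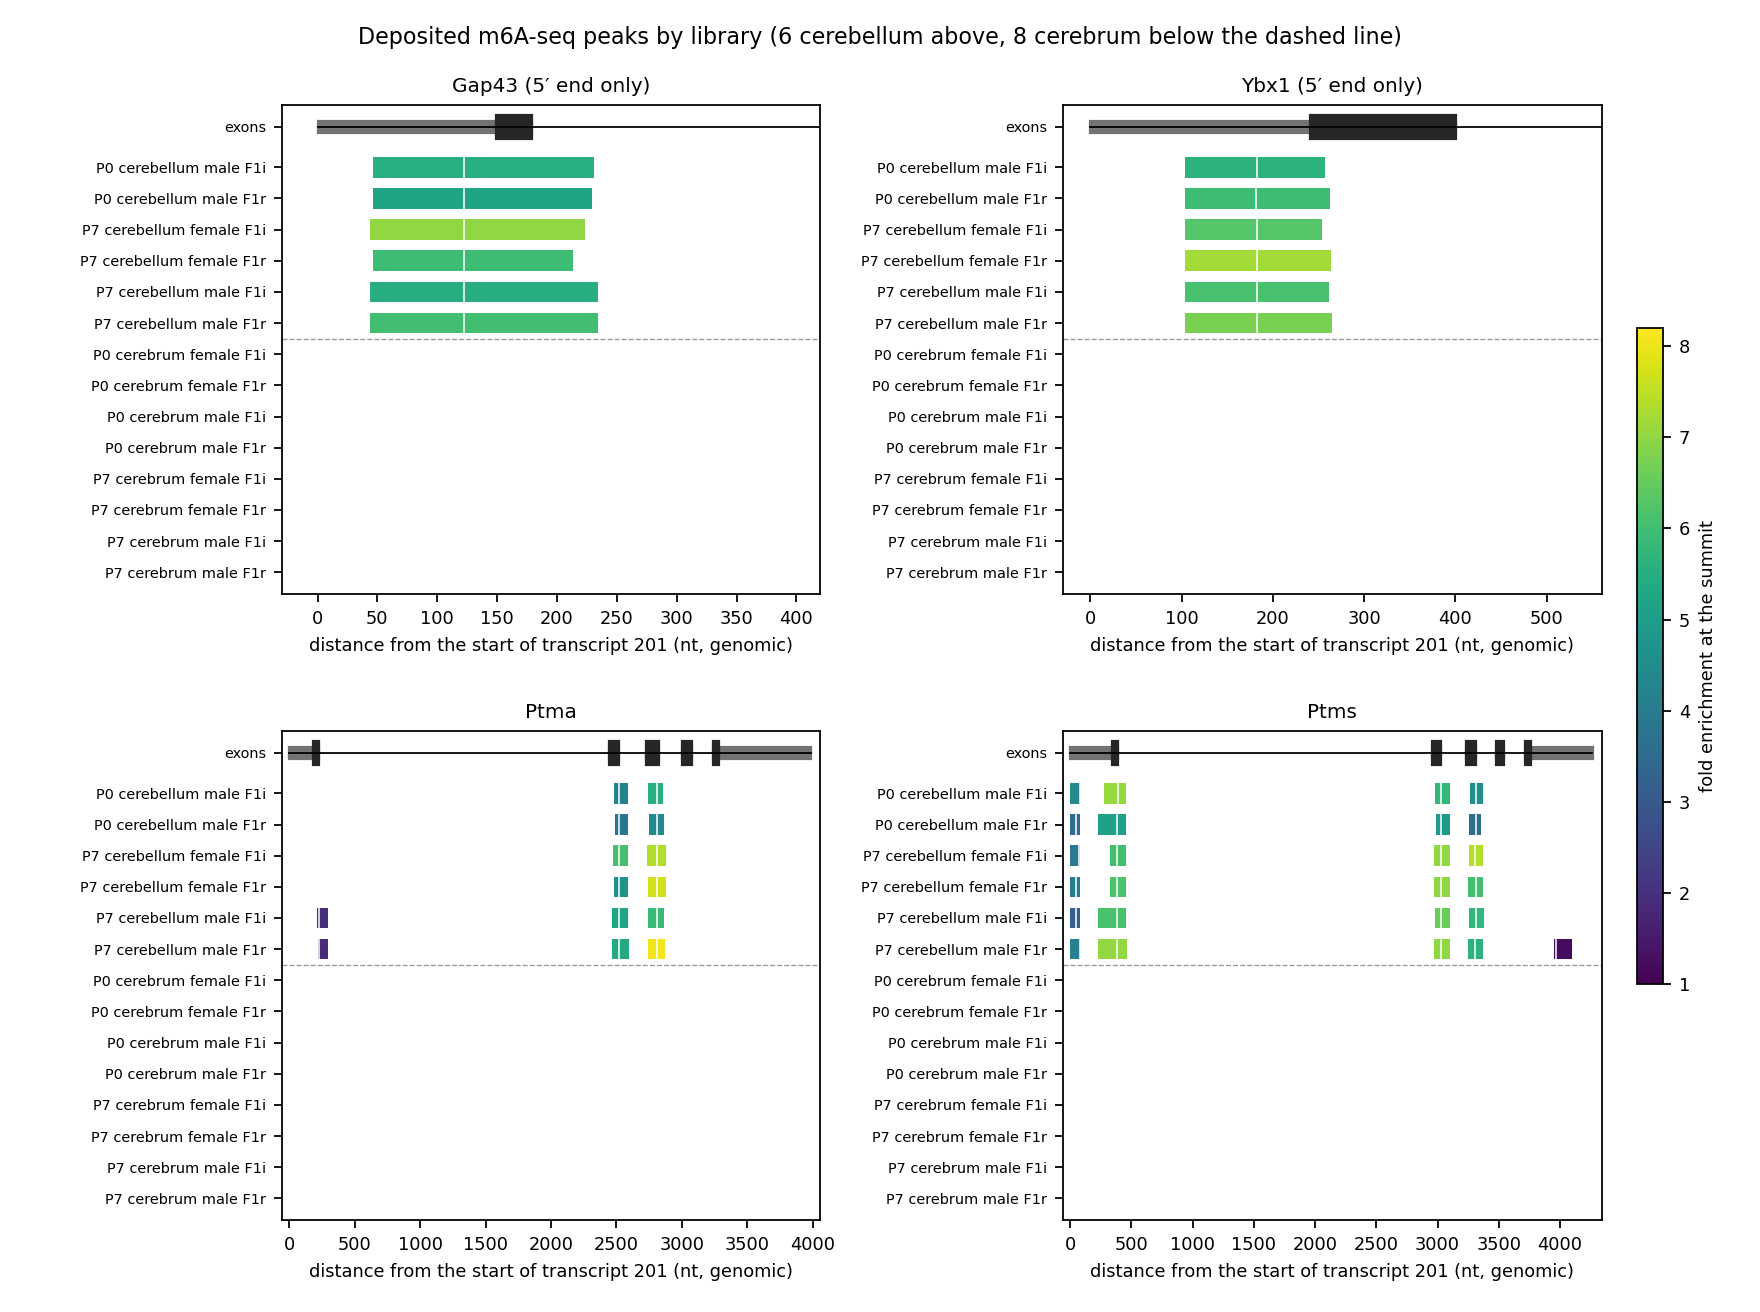
Deposited peaks of the 14 IP libraries in the 4 genes. The horizontal axis is the genomic distance in nt from the start of the main annotated transcript, bars are peaks coloured by fold enrichment, white ticks are summits, and the top row shows exons (tall where coding); the panels of Gap43 and Ybx1 show their 5′ ends, outside which no library had a peak. All bars lie in the 6 cerebellum rows, and the 8 cerebrum rows are empty.

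Gap43 had a single region, at its 5′ end (ENSMUSG00000047261.9, chr16:42248442-42340651 on the - strand, 3 exons). The region covered chr16:42340418-42340607, in the 5′UTR of exon 1, and its summit was at 42340529 in all 6 cerebellum libraries. The summit lay at -27 nt from the first base of the start codon, 122 nt downstream of the transcript start and at -56 nt from the 3′ end of the 179-nt exon. Fold enrichment, which compares the IP pileup at a summit with the pileup expected from its surroundings, was 5.55 and 5.20 in the P0 F1i and F1r libraries. At P7 it was 7.0 and 5.93 in the female F1i and F1r and 5.50 and 6.03 in the male F1i and F1r libraries, for a mean of 5.87 ± 0.634 (SD, n = 6). The highest value belonged to the P7 female F1i library, and the ranges of P0 and P7 overlapped.

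Ybx1 (ENSMUSG00000028639.14, chr4:119277981-119294604, - strand, 8 exons) likewise had 1 region, in its 5′UTR at chr4:119294340-119294500. All 6 peaks had their 5′ edge at 119294500, which is the annotated start of a shorter Ybx1 transcript, and their summits fell at 119294421 or 119294422, at most -59 nt from the start codon. Fold enrichment was 5.62 and 5.94 at P0 (F1i and F1r), 6.26 and 7.20 in the P7 females and 6.09 and 6.76 in the P7 males, a mean of 6.31 ± 0.574 (SD, n = 6). Both P0 values were below all 4 P7 values. The summit was at -218 nt from the 3′ end of the 401-nt first exon.

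Ptma (ENSMUSG00000026238.14, chr1:86526726-86530712, + strand, 5 exons) had 3 regions, none of them in its 3′UTR. The region at exon 2 (chr1:86529193-86529318) had its summit 1 nt past the 3′ end of the 72-nt exon and ran 74 nt into the intron. Its fold enrichment was 4.13 and 3.83 at P0 (F1i and F1r), 6.07 and 4.67 in the P7 females and 5.19 and 5.37 in the P7 males. The P0 values were the lowest of the 6. The region at exon 3 (chr1:86529463-86529605, a 97-nt coding exon) was the stronger of the pair, with its summit at 86529535 in all 6 libraries, at -17 nt from the exon's 3′ end. Fold enrichment there was 5.57 and 4.41 at P0, 7.37 and 7.69 in the P7 females and 5.87 and 8.05 in the P7 males, again with the P0 values lowest. A weaker region at the end of exon 1 (chr1:86526940-86527022) was called in 2 libraries only, the P7 males, at folds of 1.94 and 1.87 and with its summit on the last base of the 225-nt exon.

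Ptms (ENSMUSG00000030122.12, chr6:124913681-124920103, - strand, 5 exons) had 5 regions, of which 4 were cerebellum-only. No other protein-coding gene had as many: En2 and Anp32b came next with 3 each, and 10 genes had at least 2. The first region (chr6:124917867-124917946) was exactly 80 nt wide in all 6 libraries and ended at the annotated transcript start. Its summits were spread over 28 nt, from 49 to 77 nt after that start, against at most 3 nt in the other cerebellum-only regions of the 4 genes. Its mean fold enrichment was the lowest of the 8 cerebellum-only regions, with 4.42 and 3.51 at P0, 3.90 and 4.05 in the P7 females and 3.17 and 4.19 in the P7 males. Reads were extended to 80 nt before peaks were called, a width this region matched, and whether the extension set it was not tested.

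The Ptms regions of exons 1, 2 and 3 sat on exon ends. At exon 1 (chr6:124917486-124917722) the summit was on the last exonic base, and fold enrichment was 7.06 and 5.08 at P0, 6.05 and 6.17 in the P7 females and 6.14 and 7.04 in the P7 males. At exon 2 (chr6:124914845-124914976), a 72-nt exon, the summit was 3 nt past the exon's end, with folds of 5.74 and 4.90 at P0, 7.0 and 6.98 in the P7 females and 6.55 and 7.0 in the P7 males. At exon 3 (chr6:124914570-124914696), a 79-nt exon, the summit was at -1 nt from the end, with folds of 4.59 and 3.61 at P0, 7.40 and 6.03 in the P7 females and 5.73 and 5.64 in the P7 males. In exons 2 and 3 both P0 values were below every P7 value, while at exon 1 the P0 libraries held the highest and the lowest value. A last region in exon 5 (chr6:124913850-124913992), at the stop codon or in the 3′UTR, was called in the P7 male F1r library alone, at a fold of 1.22 and a −log10 q of 1.30, the limit of that list.

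**Figure D2:**
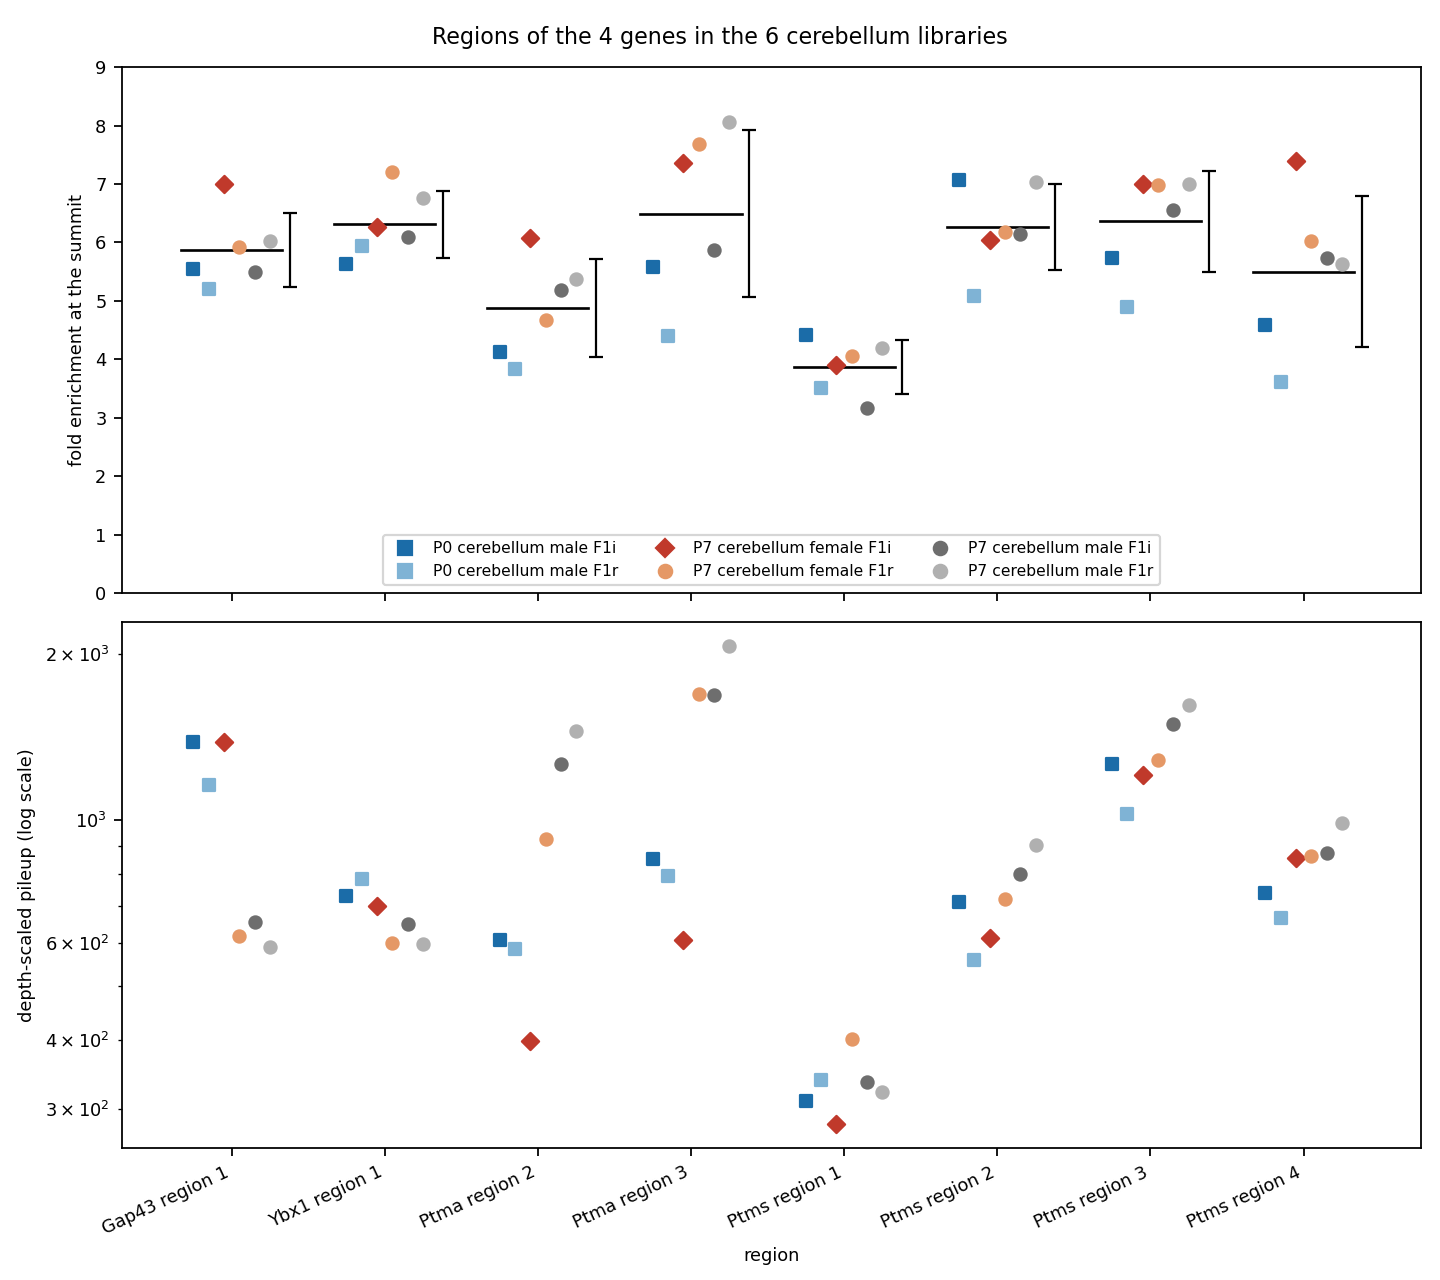
Fold enrichment (upper panel) and depth-scaled pileup (lower panel, log scale) of the 8 cerebellum-only regions, 1 point per cerebellum library. Horizontal lines are means and error bars the SD over 6 libraries; mean folds ran from 3.87 in Ptms region 1 to 6.49 in Ptma region 3, and the P7 female F1i library (red diamonds) lay with the P0 libraries in the pileup of Gap43 and below them in that of Ptma.

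Within their lists these were strong peaks. Ranked by −log10 q among all peaks of a library, the region of Ptms exon 2 reached a mean percentile of 98.2, Ptma exon 3 of 97.0, Gap43 of 96.1, Ptms exon 3 of 95.2, Ptms exon 1 of 95.1, Ybx1 of 95.1 and Ptma exon 2 of 93.3. These were the 7 highest of the 236 cerebellum-only regions, and the Ptms 5′UTR region, at 79.8, ranked 27. The ranks follow from values that went into the choice of the genes and are given as a description. Just outside the pattern, the 2 partial regions reached 67.3 (Ptma exon 1) and 0.00568 (Ptms exon 5).

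Their fold was not high for their lists. The median fold of a cerebellum list was 8.03 to 9.28, above the mean of every region described here. What was high was the local background, the pileup expected around the summit. It may come from the IP library or from an input, since the control of the calls is not given in the sources used here. Whether this local background follows transcript level was not tested. Divided by the genome-wide background of the same list and strand, it had a median over libraries of 96.5 in the Ptms 5′UTR, 122 in Ybx1, 126 in Ptms exon 1, 174 in Ptms exon 3, 177 in Gap43, 196 in Ptma exon 2, 224 in Ptma exon 3 and 242 in Ptms exon 2. The median was 11.3 over the 228 other cerebellum-only regions, 1.84 over the 1012 regions called in all cerebrum and no cerebellum libraries, 3.03 over the 9215 called in all 14 libraries and 1.51 over all regions. Each of the 8 lay above the 99.7th percentile of all regions in this measure. Within a library the local background differed by 1.04 to 1.26 times between the cerebellum-only Ptma regions. Between the cerebellum-only Ptms regions it differed by 1.87 to 3.17 times, so it was not a constant of the gene. The partial regions of both genes were left out of these ranges.

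**Figure D3:**
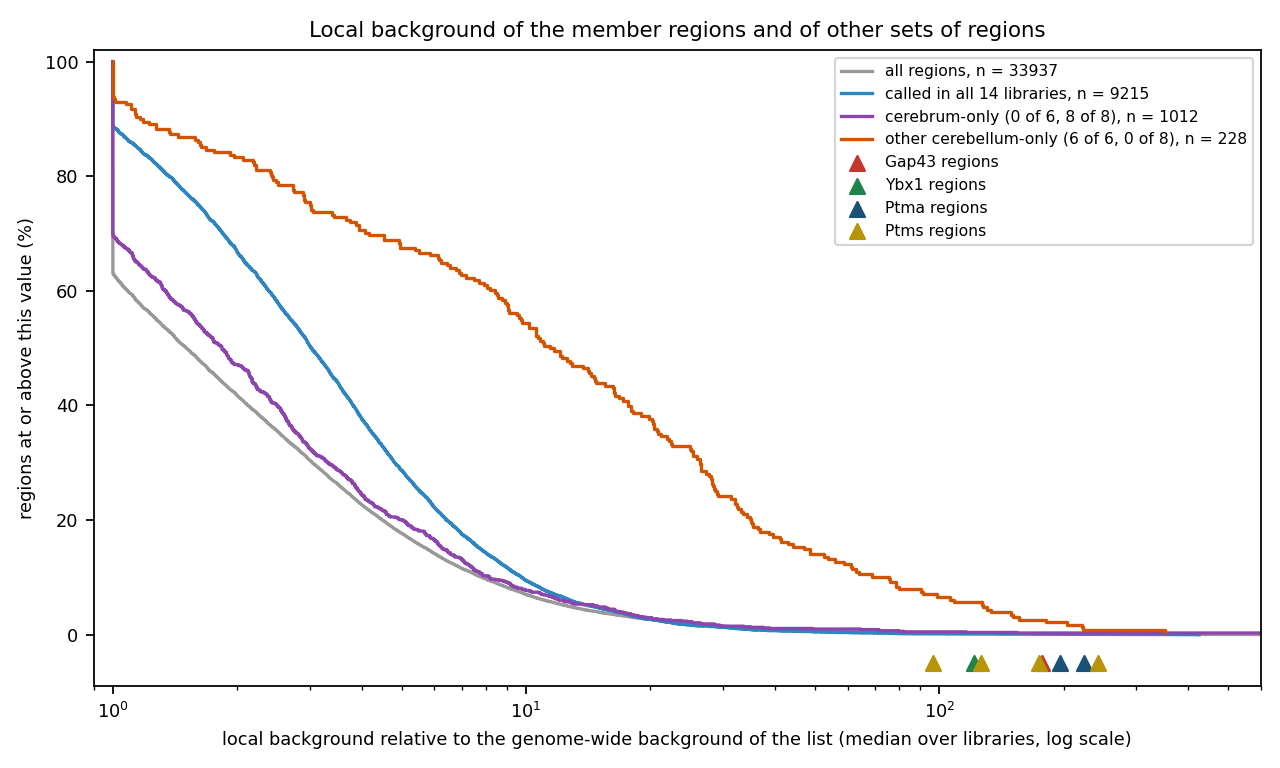
Share of regions (%, vertical axis) at or above a given local background relative to the genome-wide background of the list (horizontal axis, log scale, median over libraries), for 4 sets of regions, with the 8 member regions as triangles. The triangles lie between 96.5 and 242, while the median of the other cerebellum-only regions was 11.3.

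The lists' own thresholds give the fold that a peak needs at a given local background. At the relative local background measured in cerebellum (median), the lowest fold that would pass in a cerebrum library was 1.22 to 1.51 over the 8 regions and 8 libraries, while the folds measured in cerebellum were 3.17 to 8.05. The lowest −log10 p of a list was taken as its threshold. The pileup and background of the cerebrum libraries at these places are unknown, and whether level or detection has a part in the missing peaks was not tested.

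Peaks at so high a local background were also scarcer in cerebrum outside the 4 genes. With the members left out, 86 to 103 peaks of a cerebellum list and 22 to 38 of a cerebrum list had a relative local background of at least 96.5, the lowest median of the 8 regions. Of these, 52 to 64 and 14 to 22 had a fold of at least 3. The tissues did not overlap in either count, although the cerebrum lists were the longer ones. With the members counted, such peaks made up 0.522% to 0.590% of a cerebellum list and 0.0929% to 0.190% of a cerebrum list. The highest relative local background of a list went the other way, at 736 to 1670 in cerebellum and 3271 to 10875 in cerebrum. As these counts come from the same contrast that chose the genes and tissue coincides with batch, they were not tested, and their part in the absence of Gap43, Ybx1, Ptma and Ptms peaks from cerebrum was not tested.

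**Figure D4:**
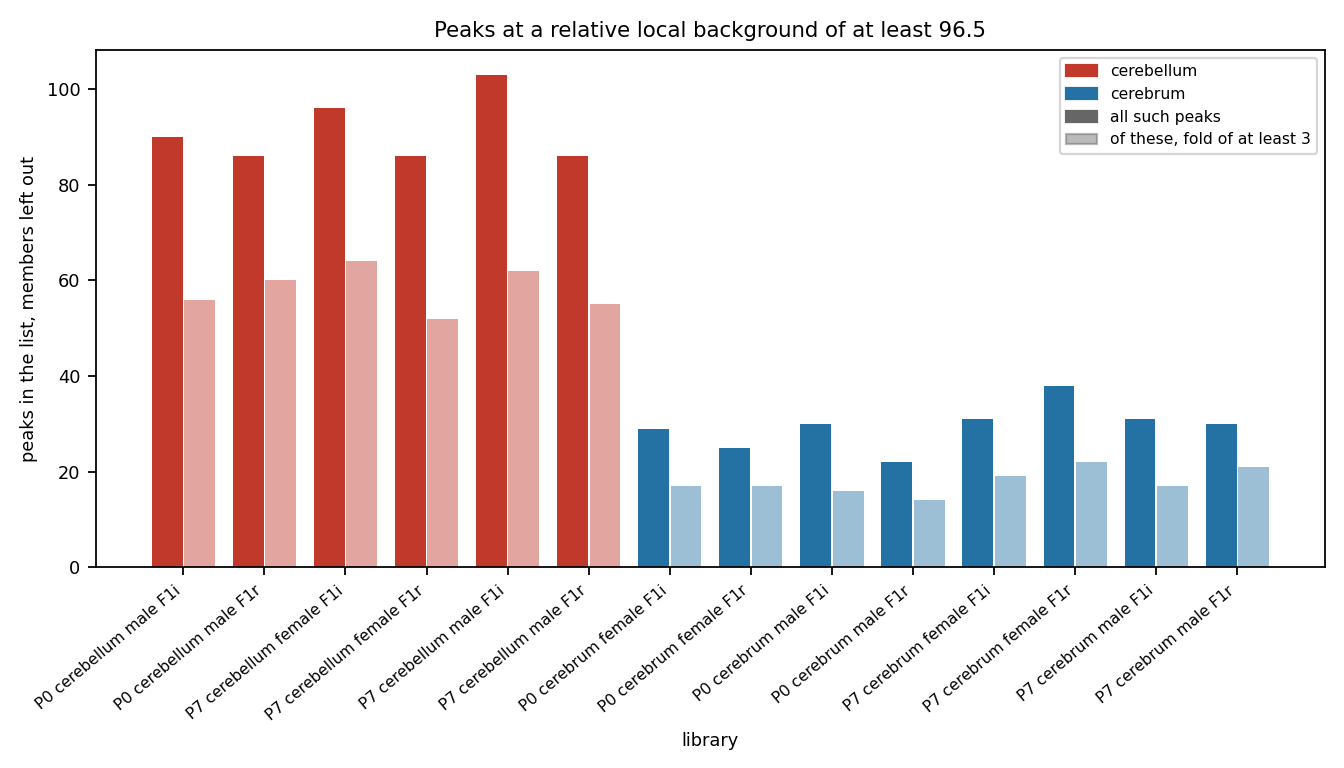
Number of peaks per library (vertical axis) at a relative local background of at least 96.5, members left out, with the pale bars counting those at a fold of at least 3. Every cerebellum list (red, 86 to 103) exceeded every cerebrum list (blue, 22 to 38).

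The positions of the summits were not used to choose the genes beyond the 5′UTR. Of the 8 regions, 4 had their summit within 5 nt of an annotated exon 3′ end, against 23 of the 228 other cerebellum-only regions (10.1%), 62 of 1012 cerebrum-only regions (6.13%), 86 of 9215 regions called in all libraries (0.933%) and 3.66% of all regions. The 4 member regions were those of Ptma exon 2 and of Ptms exons 1, 2 and 3, with none in Gap43 or Ybx1. The exon was short, 72 or 79 nt, in 3 of these cases and 387 nt long in Ptms exon 1. These regions ran 65 to 74 nt past the exon into the intron. The extension of reads along the genome to 80 nt reaches past an exon end in the same way, and its share in these positions was not tested. Another 3 regions, those of the 5′UTRs of Ybx1 and Ptms and that of Ptms exon 3, had their summit within 100 nt after an annotated transcript start, against 23.2% of the other cerebellum-only regions, 1.33% of those in all libraries and 3.19% of all. The last of these lies near the start of an internal annotated transcript and is counted under both features.

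**Figure D5:**
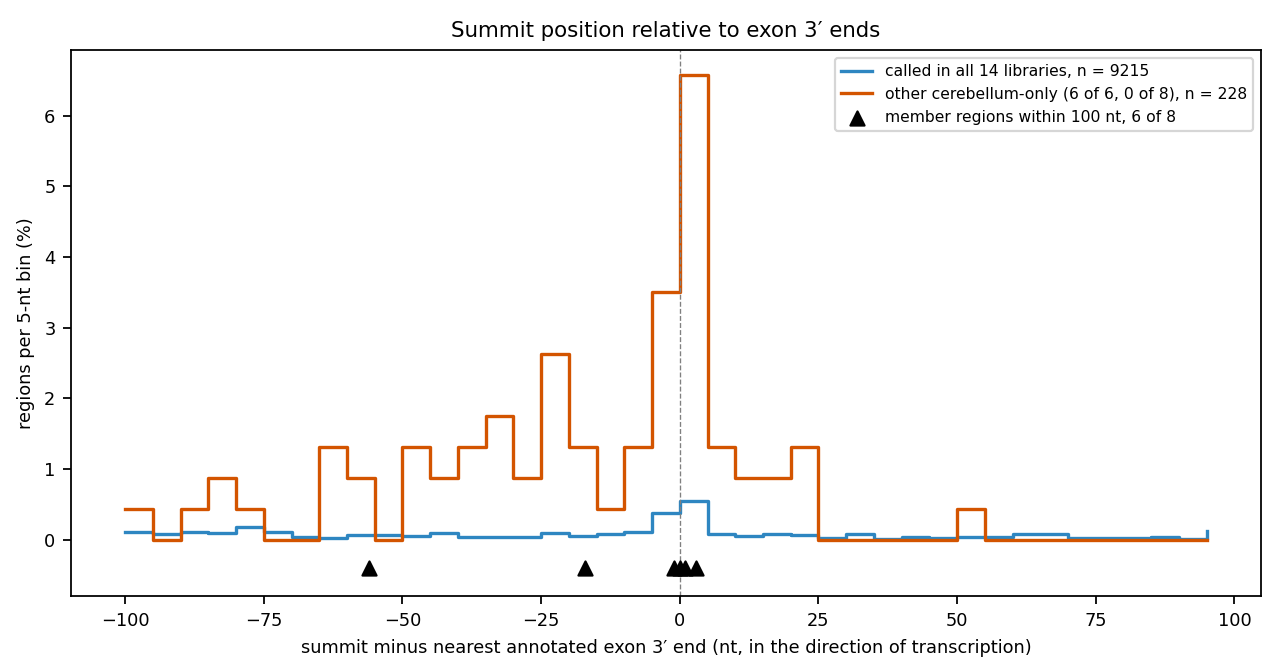
Position of the strongest summit relative to the nearest annotated exon 3′ end (horizontal axis, nt, positive downstream) as the share of regions per 5-nt bin (vertical axis, %), for regions called in all 14 libraries and for the other cerebellum-only regions. Triangles mark 6 of the 8 member regions, 4 of them within 5 nt of 0.

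Motifs were sparse around these summits. With the A of GGAC sought within 25 nt of the summit on the strand of the gene, 0 of the 8 regions had a match, against 40.8% of the other cerebellum-only regions, 53.5% of the regions in all libraries and 44.3% of all. Any DRACH site, of which GGAC followed by A, C or T is 1 form, was present in 1 of 8 (Ptms exon 2), against 69.7%, 95.4% and 90.6%. The genomic window crosses into introns at exon ends. In the spliced transcript, Ptms exon 1 had a GGAC at 2 and at 20 nt from the summit, and the nearest DRACH site of the other 7 regions lay outside the 25-nt window, the closest at -30 nt in the Ptms 5′UTR and the most distant at 48 nt on either side, as in Gap43. The spliced search was not made for other regions, so these positions have no share to be read against. A match describes the sequence only, and PWK bases that differ from the C57 reference were not considered.

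The change with age was measured in cerebellum, a contrast the choice of genes did not use. By limma on log2 fold enrichment over the 10295 regions called in all 6 cerebellum libraries, 0 of the 8 regions passed an adjusted p of 0.05, against 2 (0.0194%) of all regions. Without the P7 female F1i library 182 of 10892 regions passed, and with the males alone 443 of 11634, with 0 of the 8 among them in either fit. With all 6 libraries, the P7 minus P0 difference ran from -0.13 (SE 0.21) on the log2 scale in the Ptms 5′UTR to 0.52 (SE 0.23) in Ptms exon 3, where the adjusted p was 0.430. Without the P7 female F1i library these differences were -0.13 (SE 0.24) and 0.48 (SE 0.26, limma adjusted p = 0.438). Ptms exon 3 was the only one of the 8 with an unadjusted p under 0.05 with all 6 libraries, at 0.0396. Of all 10295 regions 1115 had such a p, before adjustment. The missing calls do not show that the folds were equal.

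The pileup itself, scaled by depth, moved differently. In Gap43 it was 1384 and 1158 at P0 and 616, 654 and 589 in the P7 female F1r, male F1i and male F1r libraries, but 1383 in the P7 female F1i library. In Ptma exon 3 it was 850 and 794 at P0 and 1696, 1684 and 2071 in the same 3 P7 libraries, against 608 in the P7 female F1i. The female F1i library thus lay among the P0 libraries or beyond them in both genes. In Ptma exon 2 the values were 606 and 585 at P0, 923, 1264 and 1453 in those 3 P7 libraries and 399 in the P7 female F1i.

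With all 6 libraries, limma on the log2 depth-scaled pileup called 0 of the 8 regions, against 692 of all 10295. Gap43 stood at -0.84 (SE 0.28, limma adjusted p = 0.101). Without the P7 female F1i library, a choice made after its values were seen, 4 of 8 passed. Gap43 was lower at P7 by a log2 difference of -1.09 (SE 0.13, limma adjusted p = 1.38e-05) and Ybx1 by -0.38 (SE 0.14, limma adjusted p = 0.0459). Ptma was higher at P7, by 0.93 (SE 0.19, limma adjusted p = 0.00160) at exon 2 and 1.05 (SE 0.15, limma adjusted p = 7.32e-05) at exon 3. The Ptms regions, at 0.01 to 0.30, did not pass. In that fit 16.6% of 10892 regions were called higher and 17.4% lower at P7. Among the 4 libraries labelled male the shares were 20.3% and 21.7%, and 7 of the 8 regions passed, all but the Ptms 5′UTR. Gap43 stood at -1.04 and Ptma exon 3 at 1.17 in the males. That fit has 2 libraries an age, so its p-values rest mainly on the spread pooled over regions. The local background of Gap43 was 280 and 250 times the genome-wide value at P0, against 108 to 132 in the 3 P7 libraries and 223 in the P7 female F1i.

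Direction of the cross was compared within the 3 cerebellum pairs of equal age and sex. Over 10295 regions limma called 0 (0%), 664 having an unadjusted p under 0.05, and 0 of the 8 regions passed under any of the alternatives tried. The F1r minus F1i difference in log2 fold enrichment lay between -0.18 (SE 0.21) in Ptms exon 3 and 0.18 (SE 0.22) in Ybx1, and 0 of the 8 had an unadjusted p under 0.05. Age in cerebrum and the interaction of age with tissue could not be computed for these genes, since no library of cerebrum had a peak in them.

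Other genes of the same roles were counted on lists of transcripts. Among 30 growth cone and cytoskeleton genes of young neurons 20 had a region, and 6 of these had a cerebellum-only region: Basp1, Mapt, Nefl, Nefm, Stmn1 and Stmn3. Of 18 genes of chromatin and histone partners 10 had a region and 5 a cerebellum-only one (Anp32a, Anp32b, Anp32e, H1f0 and Hmgb1). Of 40 transcripts abundant in all cells 21 had a region and 5 a cerebellum-only one (Atp5g3, Calm2, Eif4g2, Hsp90ab1 and Ywhaz), and absence ran both ways there, with 8 genes that had no cerebrum peak and 7 that had no cerebellum peak. Among 9 Y-box and cold shock genes 5 had a region and 0 a cerebellum-only one. Over all protein-coding genes with a region the share was 1.83%. The lists were written with results of these data known and give counts only.

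In 5′UTRs, cerebellum-only regions were found in Basp1, Mapt and Stmn3 of the growth cone list, in Atp5g3, Calm2, Eif4g2 and Ywhaz of the abundant transcripts and in H1f0 and Hmgb1 of the chromatin list. Their relative local background ran from 39.7 in H1f0, a linker histone, to 223 in Basp1, a membrane protein of growth cones. Local background in the range of the 4 genes was thus found elsewhere too: in Stmn3, a tubulin-binding stathmin, it was 182, and in Calm2, which encodes calmodulin, 128.

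Of 58 protein-coding genes with a cerebellum-only 5′UTR region, 13 also had another region called in all 14 libraries. None of the 4 genes was among them. Ordered by mean percentile of −log10 q in the cerebellum lists, the 5 highest were Basp1 (82.2), H1f0 (74.8), the protocadherin Pcdh10 (73.0), Ppp2ca, a catalytic subunit of protein phosphatase (67.6), and Mapt, which encodes tau (62.1). Fold enrichment was 2.35 to 3.36 in Basp1 and 7.54 to 16.0 in Pcdh10, where the relative local background was 9.04. Of these 5, only Basp1 had a local background within the range of the 4 genes, while the folds of H1f0 (4.53 to 7.91) and Ppp2ca (4.60 to 6.02) fell within theirs. Genes with a cerebellum-only region and no cerebrum peak, as in the 4 genes, were not in this ordering. The highest of those outside the 4 genes were Atp5g3 (mean percentile 92.9, relative local background 80.1), Stmn1 (92.4, 109), Calm2 (89.5, 128), Hsp90ab1 (89.0, 351) and Stmn3 (88.0, 182). Stmn1, Calm2 and Stmn3 lay within the background range of the 4 genes, Atp5g3 below it and Hsp90ab1 above it.

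Near-identical copies can share reads with 2 of the genes. The annotated pseudogenes Ybx1-ps2 and Ptma-ps1 had 0 peaks in either tissue, and reads of the parent genes and of unlisted copies cannot be separated in peak lists, so the pileups of Ybx1 and Ptma are uncertain to that extent.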

How the data were processed

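Peaks of 14 IP libraries were used. The input libraries were not analysed here. According to the methods and the submitters' processing notes, reads were trimmed with fastp 0.21.0, aligned with HISAT2 2.1.0 to mm10 and divided by transcript strand, and the authors called peaks with MACS2 2.1.2 per library and strand without a fragment model, extending reads to 80 nt. featureCounts 1.6.0 is also named. The control of each call is not given in the sources used here.

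The deposited ratio is the authors' fold enrichment at the summit, and the deposited −log10 p and −log10 q are theirs as well. Pileup and local background were recovered together from fold and p, and at least 99.995% of the pileups of a list came out whole (within 0.05). The genome-wide value was taken as the smallest background in a list and strand, and gave relative depth. Absolute depth stays unknown, and intervals for counting error were not computed.

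Regions join same-strand peaks that share 1 bp or more. Gene parts came from GENCODE vM21, with the 3′UTR and the 200 nt around stop codons as 1 class. Log2 fold enrichment of the strongest peak per library, centred on the median, was tested with limma 3.58.1 (R 4.3.3; trend, Benjamini-Hochberg over all regions tested) with cross as a covariate for age and the F1i-F1r pair as a block for cross. Fisher's exact test of presence (scipy 1.17.1) gave the background share. The code was tested on simulated data. P-values measure the spread between libraries, which may be technical. The test of age in cerebrum, the interaction and the cross over 14 libraries were planned and hold no member region.

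The members and lists were chosen with earlier results of these data known. Named genes were the 4 members with every region, a set of 5 comparison genes, and list members with the widest difference in libraries at a 5′UTR region. The 5 ranked highest by mean percentile of −log10 q in the cerebellum lists among genes with a cerebellum-only 5′UTR region. Another region called in all 14 libraries was also required of them, which none of the 4 genes had. Genes that a count names, and En2 and Anp32b, were named after their values were seen. Alternatives covered list size, depth, threshold, coverage, strand, merging, exon assignment, scaling, measure, sex and libraries.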

Additional observations from a re-analysis of the deposited data

Results flagged for a closer look

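Among the 4 P7 cerebellum libraries, 24 sets of values (fold enrichment, relative local background and depth-scaled pileup of the 8 regions) were searched for a library far from the others, and 4 were found, where chance flags about 1 in 20. The depth-scaled pileup of Gap43 was 1383 in the P7 female F1i library against 589 to 654 in the other 3. The depth-scaled pileup of Ptms exon 3 was 990 in the P7 male F1r library against 854 to 871. The fold enrichment of Ptms exon 1 was 7.04 in the P7 male F1r library against 6.05 to 6.17, and that of Ptms exon 2 was 6.55 in the P7 male F1i library against 6.98 to 7.0. The Gap43 value goes with the deviations of the P7 female F1i library over all regions, and the cause was not tested.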

How the results depend on the processing

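The genes were chosen by presence, so the stability of their count is no support for it. The count of 8 member regions called in all cerebellum and no cerebrum libraries was the same under 22 of 23 alternatives, leaving out each library included (8 to 8), while that over all regions moved from 236 to between 210 (−log10 q of at least 5) and 611 (P7 libraries only), with 523 in 50-nt windows, 425 in males and 361 at equal list sizes. Requiring the summit in an annotated exon left 6, since the summits of Ptma exon 2 and Ptms exon 2 lie 1 and 3 nt into the intron. For age in cerebellum, calls over all regions rose from 2 to 4 without centring, 443 in males only, 692 on the depth-scaled pileup, 3699 on the pileup without the P7 female F1i library and 4880 on the pileup in males only. The last pair, added after seeing the data, called 4 and 7 member regions and all other settings 0. Leaving out 1 library gave 1 to 182 calls, 182 without the P7 female F1i. For cross, the pileup gave 1 call and leaving out a pair 1 to 11, against 0, and the pair block changed no call: no replicate block also gave 0.

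Age differences (log2, P7 minus P0) changed sign on the pileup for Gap43 (-0.84, -1.09 without the P7 female F1i and -1.04 in males), Ybx1 (-0.35, -0.38 and -0.29) and Ptms exon 1 (0.15, 0.29 and 0.42), and for the Ptms 5′UTR without that library (0.0137) and in males (0.00728). Ptms exon 1 also turned in males (0.10) and without centring (0.0817). Leaving out a library gave -0.48 to 0.20 for the Ptms 5′UTR, -0.36 to 0.34 for Ptms exon 1 and -0.0132 to 0.20 for Ybx1. Without a P0 library the remaining one is assumed to vary like the P7 libraries. Cross differences turned on the pileup for Ptma exon 2 (0.43), Ptms exon 1 (0.00156) and Ybx1 (-0.10). Leaving out a pair gave -0.12 to 0.0312 for Gap43, -0.0920 to 0.34 for Ptma exon 3, -0.0938 to 0.31 for the Ptms 5′UTR, -0.18 to 0.19 for Ptms exon 1 and -0.0689 to 0.12 for Ptms exon 2. None of the values that turned without the pileup passed the test. The cause was not tested. The alternatives planned for age in cerebrum, for the interaction and for the cross over 14 libraries were not run, because no cerebrum list has a peak in these genes. With pileup and background scaled to the shallowest list and 1 p threshold for all, the counts were 8 and 243.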
